A study of Mus musculus with 14 samples.

Results

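The 39 genes described here encode the machinery of autophagy and of mitophagy, its branch for mitochondria. They were chosen by gene symbol from knowledge of the pathway, but with earlier results of these data known. All 39 were found among the 24394 named genes of the study's expression table. All 39 also passed the filter on low values, a mean of at least 10 normalized counts over all libraries, which kept 11646 genes for testing. A normalized count is the number of reads of a gene divided by 1 scaling factor per library.

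Autophagy encloses part of the cytoplasm in a double membrane, the autophagosome, and delivers it to lysosomes for breakdown. The Ulk kinase complex starts the process, the Vps34 lipid kinase complexes mark the membrane, Atg9, Atg2 and Wipi proteins help it grow, and the conjugation enzymes attach small Atg8 proteins (LC3 and Gabarap) to its lipid, where cargo receptors dock. In mitophagy the kinase Pink1 accumulates on damaged mitochondria and marks them for this route, while receptors such as Bnip3 bind Atg8 proteins directly. Microglia, the macrophages of the brain parenchyma, use the same conjugation enzymes when they digest engulfed material.

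The libraries came from microglia of C57BL/6 mice aged 18 months. An osmotic pump delivered either a CD22 blocking antibody (anti-CD22, 7 libraries) or a control IgG (IgG, 7 libraries) into the cerebrospinal fluid for 1 month, so that every mouse carried a pump and received an antibody; untreated and young mice are not part of the comparison. CD22 is a sialic acid-binding inhibitory receptor. About 20000 live CD11b+CD45lo cells were sorted per sample from the hemisphere opposite the cannula, and amplified cDNA was sequenced. The labels number the libraries without saying that each is 1 animal, so p-values measure the spread between these libraries. In such bulk RNA, fewer cells expressing a gene and less RNA per cell cannot be told apart.

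Depth was 20221836 to 38101421 recovered reads in 13 libraries, all but anti-CD22 replicate 3, which was left out of the work on reads. Normalized totals were 27357939 to 29197481 in all 14. The 6 microglia markers summed to 1520270 to 1777900 normalized counts in IgG and 1594750 to 1707150 in anti-CD22 libraries. The 8 neuron markers summed to at most 115 in any library. The 7 neutrophil markers ranged from 3.34 to 53461 in IgG, the highest being replicate 1, and from 0 to 10131 in anti-CD22. Monocyte markers (5) ranged from 137 to 9181, the highest again being IgG replicate 1, and from 88.2 to 2313, with 83.2% in Chil3. Border-associated macrophage markers (6) ranged from 76.1 to 1336 and from 232 to 2097. The 5 lymphocyte markers measured reached at most 30.8 (Cd3e and Ms4a1 were at 0 throughout), and the 5 red blood cell markers at most 143, all of it Alas2. Astrocyte markers (7) ranged from 5927 to 8617 and from 6657 to 8537, with 97.4% in Slc1a3, oligodendrocyte markers (8) from 5451 to 6710 and from 4949 to 5660, with 66.7% in Cnp, and endothelial markers (6) from 635 to 1216 and from 885 to 1235, with 96.0% in Pecam1 and with Cldn5 and Slco1a4 at 0. The libraries also differed in how levels followed transcript length. Spearman's rho between a gene's level, relative to its mean over libraries, and its length ran from -0.270 to -0.001 in IgG and from -0.283 to 0.339 in anti-CD22, where replicates 1, 2 and 3 stood highest (0.329, 0.301 and 0.339). The part of these features in the results was not tested, except where a value with the length and GC trend removed, or without those 3 libraries, is given.

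Most of the autophagy genes were well expressed. Per kilobase of transcript, their median level was 484 normalized counts, against 195 for all tested genes with a known length. Sqstm1, which encodes the cargo receptor p62, stood highest with 3756 per kb, followed by the Atg8 genes Gabarap (3231 per kb) and Map1lc3b (2531 per kb) and the mitophagy receptor Bnip3l (1728 per kb). At the low end were the cargo receptor Optn (50.7 per kb), Wipi1 (34.4 per kb) and the lipid transfer gene Atg2b (31.0 per kb). Pink1 was at 1281 per kb. The lengths are those of 1 annotated coding transcript per gene, the longest, so these levels are approximate where shorter forms prevail.

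**Figure D1:**
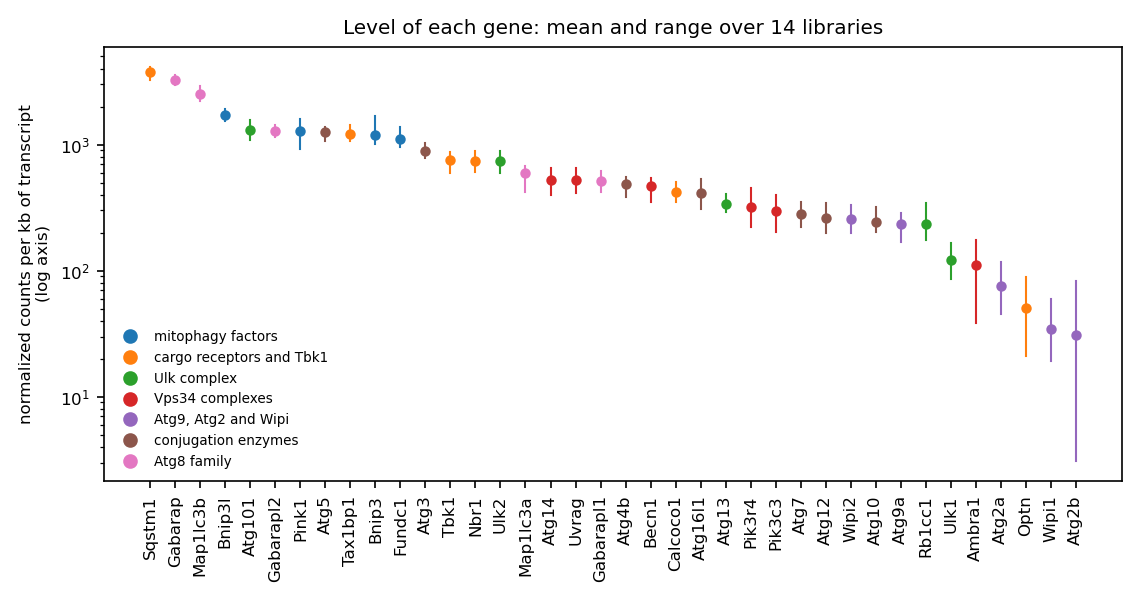
Level of 38 of the 39 genes in normalized counts per kb of transcript (log axis); points are means and lines the range over all 14 libraries, coloured by role. The genes run from Sqstm1 (3756) down to Atg2b (31.0), and the range of Atg2b is the widest.

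Across the pathway the groups differed little. In the limma fit 0 of the 39 genes passed an adjusted p of 0.05, where 0.00859% of all 11646 tested genes did (1 gene, lower). At an unadjusted p under 0.05 there were 3 of the 39, against 12.8% of all tested genes: Pink1 was lower with anti-CD22 (5.95% of tested genes were, at that limit), and Rb1cc1 and Ambra1 were higher (6.8% of tested genes were). The median log2 fold change, anti-CD22 over IgG, was 0.01 for the 39 genes (21 above 0, 18 below) and 0.00 for all tested genes. The groups overlapped for all 39, whereas they did not for 0.258% of tested genes.

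Pink1 was among the members at an unadjusted p under 0.05 in every fit made, and the others varied. Removing the length and GC trend left 3 of 39 (Pink1 and Becn1 lower, Ambra1 higher), against 8.69% of genes. Without anti-CD22 replicates 1, 2 and 3 there were 4 (Pink1 and Pik3c3 lower, Calcoco1 and Atg2a higher), against 5%. With both changes there were 5 (Pink1, Pik3c3, Pik3r4 and Atg2b lower, Calcoco1 higher), against 4.97%. Without anti-CD22 replicate 7 there were 8, against 16.9%, and in limma without a mean-variance trend 1 (Pink1), against 11.5%. On recovered reads edgeR gave 2 (Pink1 lower, Rb1cc1 higher), against 8.79%, and DESeq2 4 (Pink1 and Pik3c3 lower, Rb1cc1 and Ambra1 higher), against 9.98%. As a share of the 39, the count was below the background over all libraries, with the trend removed, without the mean-variance trend and in edgeR, close to it in DESeq2, and above it without replicate 7, without replicates 1, 2 and 3 and with both changes. These shares rest on few genes, and the background differs between fits.

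The fit limited the size of most differences. The 95% interval of the fold change lay within 1.5-fold in either direction for 34 of the 39 (87.2%), against 65.4% of all tested genes, and within 1.2-fold for 15 (38.5%), against 19.7%. The genes were also more abundant than the tested genes as a whole (median 1646 against 591 normalized counts) and had smaller standard errors (median 0.10 against 0.13 on the log2 scale), and whether their intervals are narrow for genes of that level was not tested. The 5 genes with intervals beyond 1.5-fold were Optn, Ambra1, Atg2a, Atg2b and Wipi1, which also stand among the 7 lowest levels per kb.

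**Figure D2:**
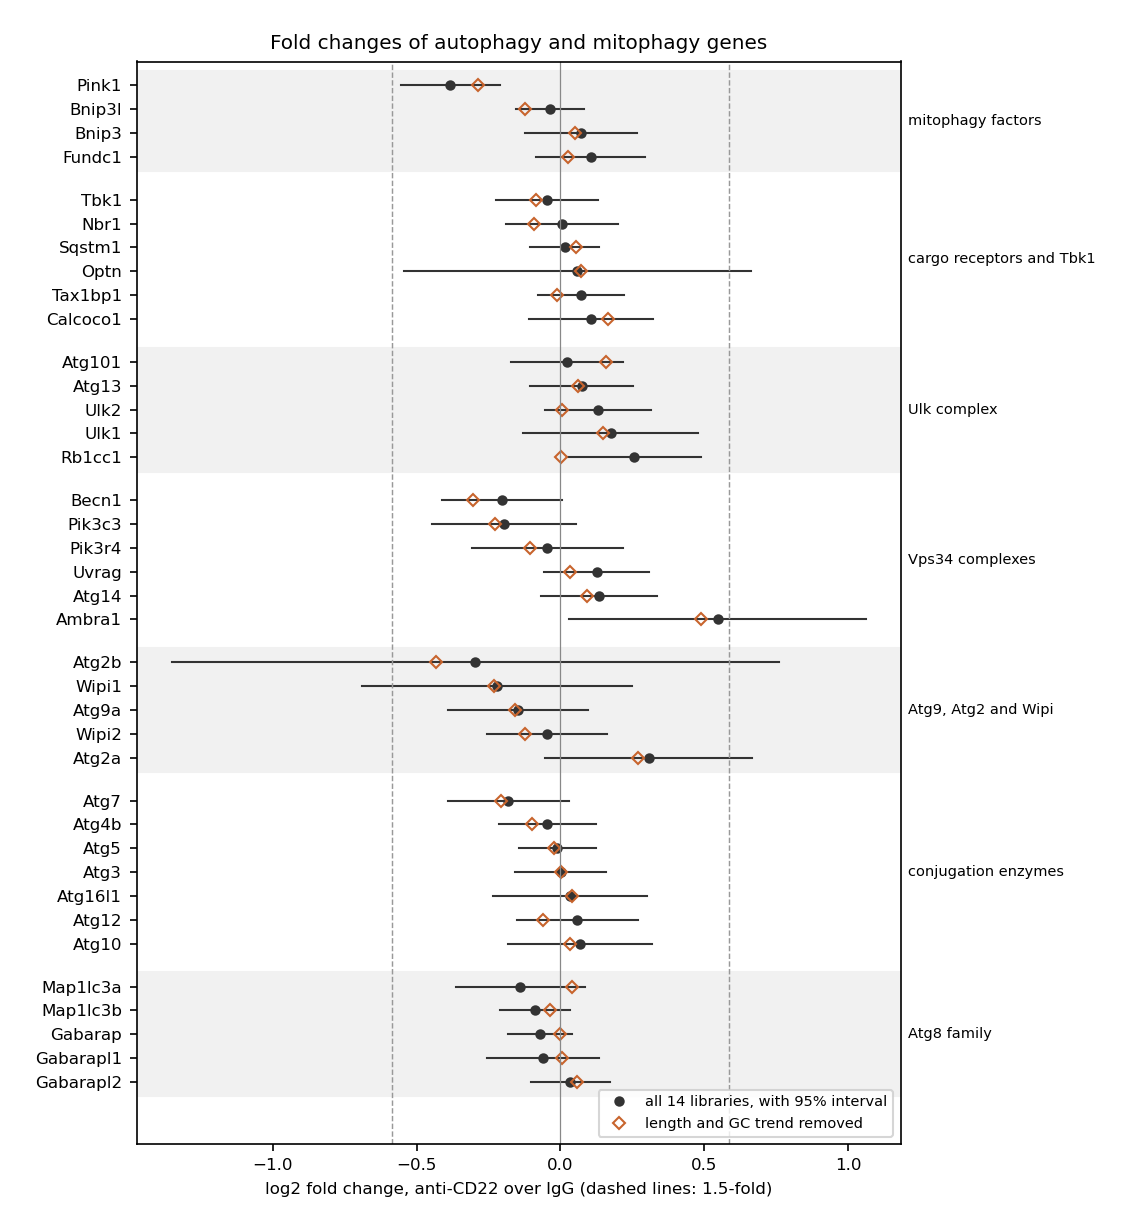
Log2 fold change, anti-CD22 over IgG, of 38 of the 39 genes by role. Black points and lines are the limma estimates with 95% intervals over all 14 libraries, open diamonds the estimates with the length and GC trend removed, and dashed lines mark 1.5-fold; the interval of Pink1 lies wholly below 0, and that of Atg2b is the widest.

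Of the 5 mitophagy genes, Pink1 stood apart. Its level was 2993, 3462 and 3765 normalized counts (lowest, median and highest) in the 7 IgG libraries and 2183, 2668 and 3094 in the 7 anti-CD22 libraries. Each of the 7 anti-CD22 libraries was under the median of the IgG group, and 6 were under its lowest library, while replicate 4 (3094) fell inside the IgG range. The means were 3440 ± 319 (SD, n = 7) and 2645 ± 321 (SD, n = 7), a log2 fold change of -0.38 (SE 0.08, 95% interval -0.55 to -0.21), or 1.30-fold lower. Among all tested genes it ranked 11th by p, but its adjusted p was 0.144 in limma with Benjamini-Hochberg adjustment over 11646 genes.

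The call on Pink1 depended on the test. DESeq2 on the recovered reads of 13 libraries gave a log2 fold change of -0.34 with an adjusted p of 0.0170, where it called 35 genes (0.524% of the 6683 to which it gave an adjusted p), while edgeR's quasi-likelihood test on the same reads gave an adjusted p of 0.373. The library missing there was anti-CD22 replicate 3, which had the lowest Pink1 level of all 14 (2183). On the same 13 libraries limma gave a log2 fold change of -0.34 with an adjusted p of 0.342. Leaving out each library in turn kept the log2 fold change between -0.42 and -0.34, and the limma adjusted p between 0.0454 and 0.342; the lowest came without anti-CD22 replicate 7, when 43 genes passed (0.369%). Removing the length and GC trend gave a log2 fold change of -0.29 (adjusted p = 0.305 in limma), and without anti-CD22 replicates 1, 2 and 3 it was -0.30 (adjusted p = 0.758 in limma). Those 3 libraries held 2183 to 2668 normalized counts of Pink1, and the other 4 held 2357 to 3094. Neuron markers, from a cell type that also expresses Pink1, summed to 25.6 to 113 in IgG and 21.3 to 115 in anti-CD22 libraries. The highest Pink1 level of all 14 (3765) was that of IgG replicate 1, the library with the most neutrophil transcripts. Without that library the log2 fold change was -0.36 (limma adjusted p = 0.160). The part of other cell types in the Pink1 level was not tested.

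Pink1 lies on the minus strand of chromosome 4 (chr4:138313409-138326307 in GENCODE M21, mm10). Because it is the gene with the largest difference relative to its error, the sequence just upstream of it is shown, from 250 to 21 bases before the RefSeq start (GRCm38.p6, chr4:138326317-138326546, minus strand, 5′ to 3′):
Pink1 upstream: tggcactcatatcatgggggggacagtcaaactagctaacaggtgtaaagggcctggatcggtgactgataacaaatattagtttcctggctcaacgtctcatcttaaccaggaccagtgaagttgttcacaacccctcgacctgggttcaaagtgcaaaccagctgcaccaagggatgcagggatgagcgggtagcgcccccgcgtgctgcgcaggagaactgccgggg
Neither the E-box CACGTG, the core of the motif bound by the lysosomal regulator Tfeb and its relatives, nor the AP-1 motif TGANTCA is in the Pink1 window of 250 bases before to 50 bases after the start.

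The receptor genes Bnip3, Bnip3l and Fundc1, which act at the mitochondrial surface, had log2 fold changes of 0.07 (95% interval -0.12 to 0.27), -0.04 (-0.16 to 0.08) and 0.11 (-0.08 to 0.29), with adjusted p of 0.643 to 0.810 in limma. Fundc1 was at 2540 to 2715 normalized counts in anti-CD22 replicates 1, 2 and 3 and at 1881 to 2351 in the other 4 libraries of that group; without those 3 its log2 fold change was -0.05. Bnip3 has 4 near-identical copies elsewhere in the genome that the table does not list, with over 95% identity over 31.8 to 48.9% of its transcript, and Bnip3l has 1, so reads could have been split. Bnip3 also shares exonic bases with an antisense gene.

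The cargo receptors tie cargo, in several cases ubiquitinated, to Atg8 proteins, and the kinase Tbk1 phosphorylates several of them. Of these 6 genes 0 passed, 5 had a positive log2 fold change and the median was 0.04; with the length and GC trend removed 3 were positive and 3 negative (median 0.02), and without anti-CD22 replicates 1, 2 and 3 the median was -0.03. Calcoco1 had the smallest p. It was at 1032, 1135 and 1454 normalized counts in IgG and 1044, 1353 and 1492 in anti-CD22 libraries, and the groups overlapped over most of their range. The log2 fold change of Calcoco1 was 0.11 (95% interval -0.11 to 0.32, SE 0.10, limma adjusted p = 0.687) and 0.27 without anti-CD22 replicates 1, 2 and 3 (adjusted p = 0.890 in limma). Sqstm1, the most abundant, was at 8753, 10098 and 11081 in IgG and at 9081, 10085 and 10970 in anti-CD22 libraries. The log2 fold change of Sqstm1, 0.01, had a 95% interval of -0.11 to 0.13. The other receptors Tax1bp1, Nbr1 and Optn, and Tbk1, had log2 fold changes from -0.05 to 0.07, with the interval of Optn reaching from -0.54 to 0.66. Sqstm1 overlaps the opposite-strand gene Mrnip over 17.3% of its exonic bases, and the sources used here do not say whether counting used strand.

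The 5 genes of the Ulk complex all had positive log2 fold changes, with a median of 0.13, or 0.06 with the length and GC trend removed; 0 of 5 passed. Rb1cc1, which encodes the scaffold Fip200, had the smallest p. It was at 1336, 1565 and 1997 normalized counts in IgG and 1465, 1863 and 2609 in anti-CD22 libraries, with 6 of 7 libraries given anti-CD22 over the median of IgG and 2 over its highest library. For Rb1cc1 the log2 fold change was 0.26 (95% interval 0.02 to 0.49, SE 0.11, limma adjusted p = 0.361). Rb1cc1 has the longest transcript of the 39 genes (7607 bases). With the trend removed its log2 fold change was 0.00, and without anti-CD22 replicates 1, 2 and 3 it was 0.12.

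Ulk2, the more abundant of the initiating kinase genes, was at 3418, 3997 and 4705 in IgG and 3479, 4577 and 5111 in anti-CD22 libraries. Its log2 fold change of 0.13 (95% interval -0.05 to 0.31, SE 0.09, limma adjusted p = 0.538) was 0.00 with the trend removed and 0.01 without replicates 1, 2 and 3. Ulk1 was at 448, 600 and 867 in IgG and 490, 672 and 837 in anti-CD22 libraries, and its log2 fold change was 0.17 (95% interval -0.13 to 0.48). The highest Ulk1 level of all 14 was that of IgG replicate 1, the library with the most neutrophil transcripts; without it the log2 fold change was 0.27. The adaptor genes Atg13 and Atg101 had log2 fold changes of 0.07 and 0.02.

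The Vps34 complexes make the lipid PI3P, with Pik3c3 as the kinase, Pik3r4 and Becn1 as shared subunits, Atg14 and Uvrag as alternative ones and Ambra1 as a partner of Becn1. Of these 6 genes 0 passed, and 3 had positive and 3 negative log2 fold changes. Ambra1 had the largest estimate of the 39 genes. It was at 201, 455 and 787 normalized counts in IgG and 369, 773 and 914 in anti-CD22 libraries, with 6 of 7 libraries given anti-CD22 over the median of IgG and 3 over its highest library. For Ambra1 the log2 fold change was 0.55 (95% interval 0.03 to 1.06, SE 0.25, limma adjusted p = 0.372). With the trend removed it was 0.49, and leaving out IgG replicate 5, the library at 201, made it 0.35.

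Becn1 pointed the other way. It was at 1887, 2301 and 2357 in IgG and at 1521, 2000 and 2381 in anti-CD22 libraries. The 3 lowest of all 14 libraries were anti-CD22 replicates 1, 2 and 3, at 1645, 1521 and 1618, and the other 4 anti-CD22 libraries held 2000 to 2381. The log2 fold change was -0.20 (95% interval -0.41 to 0.00, SE 0.10, limma adjusted p = 0.401) over all libraries, -0.01 without those 3, and -0.30 with the trend removed (limma adjusted p = 0.527). The trend removal and the omission of the 3 libraries thus moved Becn1 in opposite directions. The length used for Becn1 is that of its longest coding transcript, 4365 bases, of 5 that range from 375 bases with a median of 725. Of its exonic bases 43.9% also belong to the opposite-strand gene Cntd1, which the table lists at a mean of 6.86.

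Pik3c3 was at 857, 1063 and 1304 in IgG and 655, 892 and 1120 in anti-CD22 libraries. Its log2 fold change was -0.20 (95% interval -0.45 to 0.06, SE 0.12, limma adjusted p = 0.498) and -0.34 without anti-CD22 replicates 1, 2 and 3 (adjusted p = 0.930 in limma). Atg14, which directs the complex to the forming autophagosome, was at 1471, 1885 and 2423 in IgG and 1693, 2066 and 2325 in anti-CD22 libraries, a log2 fold change of 0.13 (95% interval -0.07 to 0.34). Uvrag, its counterpart on endosomes, was at 2275, 2580 and 2982 and at 2147, 2725 and 3332, a log2 fold change of 0.13 (95% interval -0.06 to 0.31), or 0.03 with the trend removed. In Atg14 and Uvrag the groups overlapped. For Pik3r4 the log2 fold change was -0.05 (95% interval -0.31 to 0.22, limma adjusted p = 0.908). It was -0.24 without anti-CD22 replicates 1, 2 and 3, and -0.27 with the trend removed as well (limma adjusted p = 0.977 and 0.983). Those 3 libraries held 1531 to 2137 normalized counts of Pik3r4, and the other 4 held 1056 to 1553.

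**Figure D3:**
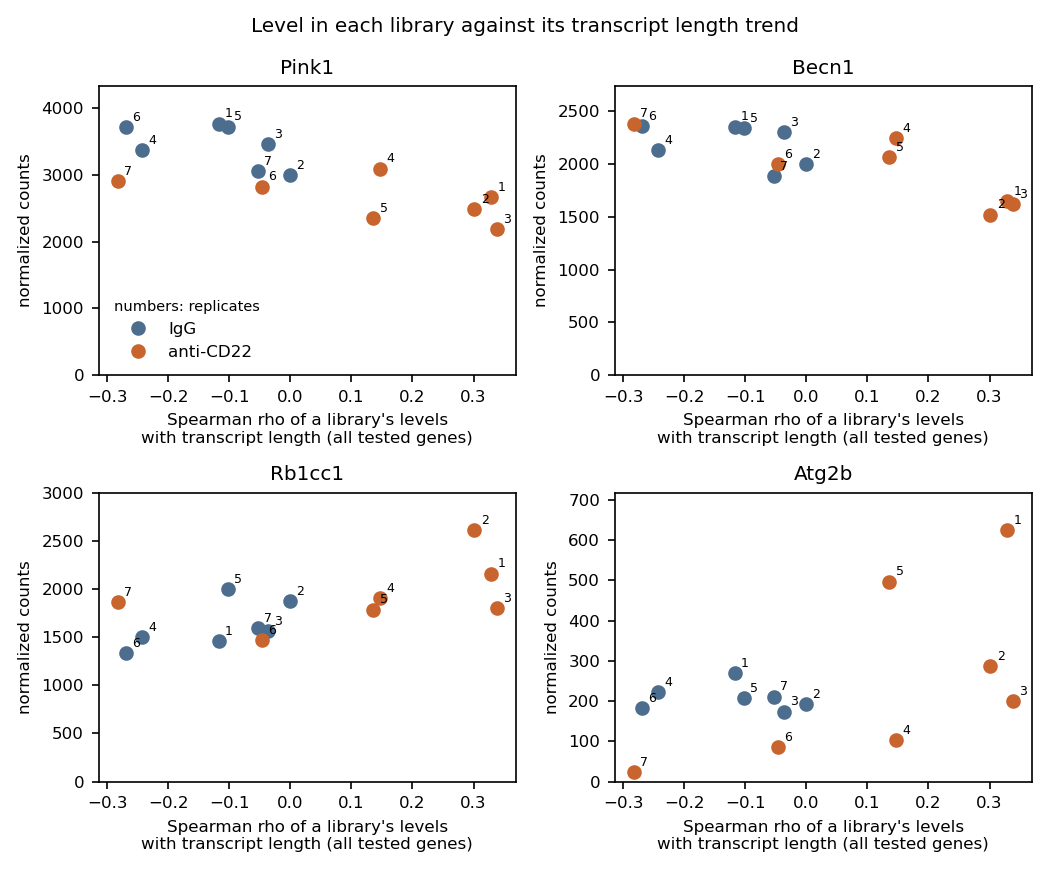
Normalized counts of Pink1, Becn1, Rb1cc1 and Atg2b in each library against that library's Spearman rho between relative level and transcript length over all tested genes; each point is a library with its replicate number. Anti-CD22 replicates 1, 2 and 3 lie at the right (0.329, 0.301 and 0.339) and hold the 3 lowest Becn1 levels, while Pink1 is at or below 3094 in every anti-CD22 library.

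Of the 5 genes for membrane supply and growth, Atg9a, Atg2a, Atg2b, Wipi1 and Wipi2, 0 passed, 4 had negative log2 fold changes and the median was -0.15. Atg2a had the smallest p. It was at 289, 452 and 613 normalized counts in IgG and 381, 511 and 747 in anti-CD22 libraries, a log2 fold change of 0.31 (95% interval -0.05 to 0.67, SE 0.17, limma adjusted p = 0.462). Wipi1, Wipi2 and Atg9a, which encode 2 PI3P-binding proteins and a lipid scramblase, had log2 fold changes of -0.22, -0.05 and -0.15. Atg9a shares 31.8% of its exonic bases with Gm29253 on the same strand.

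Atg2b stood out by its spread between libraries, which was not tested, and is singled out here after its values were seen. It was at 174, 207 and 270 normalized counts (lowest, median and highest) in IgG libraries and at 23.3, 201 and 624 in anti-CD22 libraries. In anti-CD22 replicates 1 to 7 the levels were 624, 287, 201, 103, 496, 85.1 and 23.3, so that libraries of that group lay on both sides of the whole IgG range. The SD of the log2 level was 0.21 in IgG and 1.63 in anti-CD22, a ratio of 7.74 that was the highest of 11646 genes over all 14 libraries; the median ratio was 1.03 for all genes and 1.14 for the 39. Leaving out 1 library at a time gave a ratio of 5.54 to 12.1, with 1 to 11 genes at or above it (11 without anti-CD22 replicate 7), and with the trend removed it was 5.86, with 4 genes at or above it. Some other members were also more spread in anti-CD22, and others were less so. The highest ratios after Atg2b were 3.65 for Atg12 (68 genes at or above it), 2.40 for Atg5 (468 genes) and 2.29 for Map1lc3a (578 genes). The lowest were 0.55 for Atg9a, 0.59 for Optn and 0.60 for Atg14. The lowest library held 21 reads of Atg2b and the highest 682. The log2 fold change was -0.30 (95% interval -1.35 to 0.76), 0.17 without anti-CD22 replicate 7 and -1.02 without replicates 1, 2 and 3 (limma adjusted p = 0.977). With those 3 left out and the trend removed it was -1.09 (limma adjusted p = 0.983), and Atg2b was then among the 5 members at an unadjusted p under 0.05. Atg2b shares 383 exonic bases (2.85%) with the opposite-strand gene Gskip, whose mean level was 1303.

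**Figure D4:**
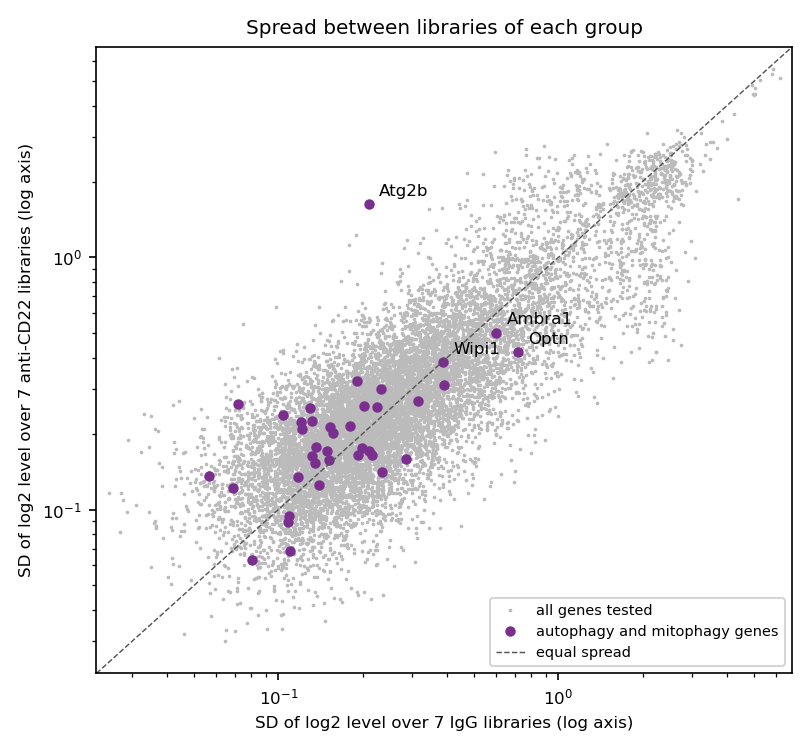
SD of the log2 level over the 7 anti-CD22 libraries against the SD over the 7 IgG libraries (both log axes) for all tested genes (grey; 1 with an SD of 0 is not drawn) and 38 of the 39 autophagy genes (purple); the dashed line marks equal spread. Atg2b (0.21 and 1.63) lies far above the line, and Ambra1 and Optn have high spread in both groups.

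The 7 conjugation genes act like a ubiquitin pathway: Atg7 is the activating enzyme, Atg3 and Atg10 are the transfer enzymes, Atg12, Atg5 and Atg16l1 form the ligase complex, and Atg4b is the protease that trims Atg8 proteins. Their median log2 fold change was 0.00, 4 were positive and 3 negative, 0 passed, and all 7 intervals lay within 1.5-fold. Atg7 had the smallest p. It was at 944, 1214 and 1359 in IgG and 861, 1009 and 1236 in anti-CD22 libraries, with 6 of 7 libraries given anti-CD22 under the median of IgG. Its log2 fold change was -0.18 (95% interval -0.39 to 0.03, SE 0.10, limma adjusted p = 0.456). The other 6 had log2 fold changes of -0.05 to 0.07 and adjusted p of 0.839 to 0.999. Atg5 was among the more even, at 2863, 2901 and 3190 in IgG and 2527, 3064 and 3215 in anti-CD22 libraries (95% interval -0.15 to 0.12).

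The Atg8 family had narrow intervals as well: 4 of its 5 lay within 1.2-fold. Of the 5 genes 0 passed, 4 had negative log2 fold changes and the median was -0.07; on removal of the length and GC trend the median was 0.01 and 2 were negative. The Atg8 transcripts are short, with a median of 1677 bases against 3060 for all tested genes. Map1lc3b, the gene of the commonly assayed LC3B, was at 6417, 6829 and 7466 normalized counts in IgG and 5889, 6329 and 7635 in anti-CD22 libraries. For Map1lc3b the log2 fold change was -0.09 (95% interval -0.21 to 0.03, SE 0.06, limma adjusted p = 0.522), and its highest library was anti-CD22 replicate 7. Map1lc3a was at 619, 684 and 758 and at 468, 621 and 754, a log2 fold change of -0.14 (95% interval -0.36 to 0.09, adjusted p = 0.597 in limma). It was 0.04 with the trend removed.

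Gabarap was at 4154, 4361 and 4824 in IgG and 4041, 4215 and 4542 in anti-CD22 libraries, a log2 fold change of -0.07 (95% interval -0.18 to 0.04, adjusted p = 0.581 in limma) that was 0.00 with the trend removed. Gabarapl1 was at 805, 923 and 1114 and at 764, 886 and 1078, a log2 fold change of -0.06 (95% interval -0.26 to 0.13, adjusted p = 0.810 in limma). Gabarapl2 was at 1930, 2137 and 2330 and at 2060, 2112 and 2420, a log2 fold change of 0.03 (95% interval -0.10 to 0.17, adjusted p = 0.857 in limma). In all of them the groups overlapped. Gabarapl2 has 3 near-identical copies that the table does not list (Gm6051, Gm5829 and Gm3724), and Gabarapl1 overlaps the opposite-strand gene 1700101I11Rik, at a mean of 0.999.

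**Figure D5:**
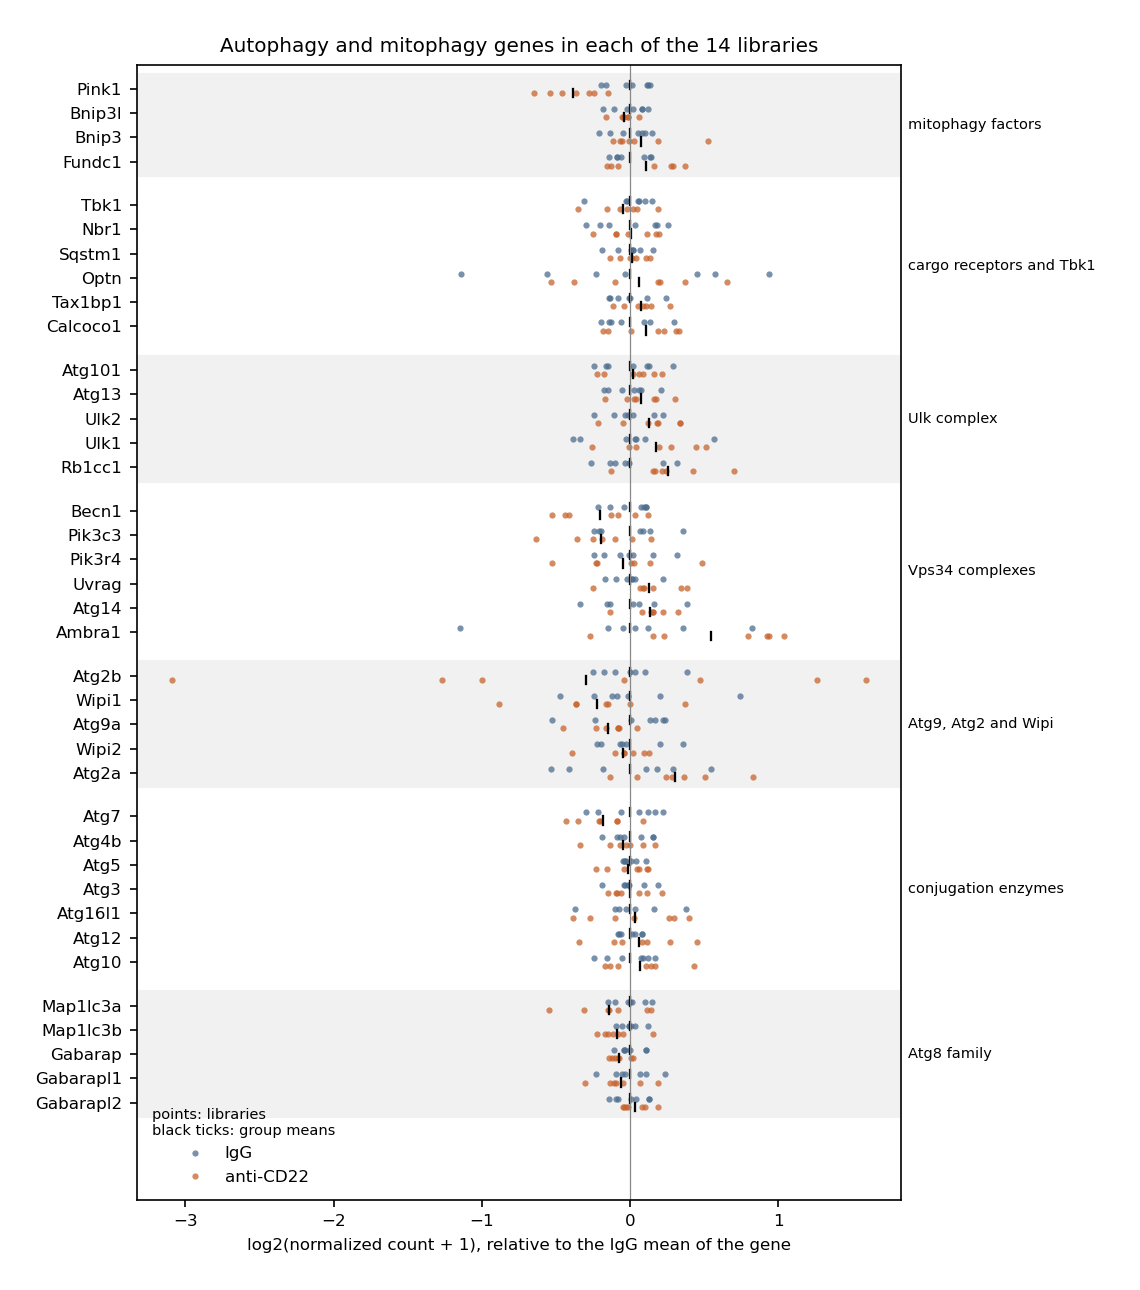
Log2(normalized count + 1) of 38 of the 39 genes in every library, relative to the gene's mean in IgG libraries; blue points are IgG, orange points anti-CD22 libraries and black ticks group means. The groups overlap for every gene drawn; in Pink1 6 of 7 orange points lie below every blue point, and Atg2b has orange points on both sides of its blue ones.

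Paralogues were also compared within each library, since the ratio of 2 genes does not depend on how the library was scaled. Of 6 pairs, 0 differed between groups at an adjusted p under 0.05 (two-sided exact permutation tests over 3432 assignments of libraries, adjusted over the 6), and 0 did at an unadjusted p under 0.05. Map1lc3a stood below Map1lc3b by a log2 ratio of -3.32 ± 0.13 (SD, n = 7) in IgG and -3.37 ± 0.19 (SD, n = 7) in anti-CD22, a difference of -0.05 (95% interval -0.24 to 0.14, exact permutation p = 0.584, adjusted 0.701). Gabarapl1 to Gabarapl2 had the smallest p, with a difference of -0.10 (95% interval -0.28 to 0.09, exact permutation p = 0.286, adjusted 0.701). The differences for Ulk1 to Ulk2, Bnip3 to Bnip3l and Wipi1 to Wipi2 were 0.04 (95% interval -0.28 to 0.37), 0.11 (-0.12 to 0.34) and -0.17 (-0.79 to 0.44). For Atg2a to Atg2b the difference was 0.60, with an interval of -0.97 to 2.17 that follows the spread of Atg2b.

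The promoters of the genes were searched for motifs known in this pathway, as a description of sequence only. RefSeq windows of 250 bases before to 50 bases after the start (GRCm38.p6) were at hand for 31 of the 39 genes. The E-box CACGTG was in 6 of these 31 (19.4%: Atg14, Atg3, Atg5, Atg7, Bnip3 and Tbk1), against 8.09% of 27025 genes. The longer palindrome TCACGTGA, which contains CACGTG, was in 1 (Atg3), against 1.12% of genes. TGANTCA was in 0 of 31, against 8.97% of genes. Both strands were searched. The windows of Atg7 (chr6:114670846-114671145) and Atg14 (chr14:47568385-47568684) lie inside the span of the gene in GENCODE M21. Those spans are 114643097-114860614 and 47540893-47570649. For Atg5 the 50 bases after the RefSeq start were not found whole in a GENCODE M21 transcript of the gene. For orientation, stretches around the E-boxes of 3 genes are given 5′ to 3′ on the gene's strand, with the motifs in capitals; they are chr16:45158719-45158778 (plus strand) for Atg3, chr7:138909592-138909631 (minus strand) for Bnip3 and chr10:44268299-44268338 (plus strand) for Atg5.
Atg3: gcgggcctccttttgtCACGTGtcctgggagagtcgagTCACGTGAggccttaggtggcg
Bnip3: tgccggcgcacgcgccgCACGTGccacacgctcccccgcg
Atg5: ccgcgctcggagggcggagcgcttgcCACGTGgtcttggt
The log2 fold changes of the genes with an E-box ran from -0.18 (Atg7) to 0.13 (Atg14), none of them past the threshold. Those of the genes printed were 0.00 (Atg3), 0.07 (Bnip3) and -0.01 (Atg5).

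A list of 66 further autophagy genes gave a like picture, with 64 of them tested (Atg9b and Usp13 were below the filter, at means of 0.713 and 0). Of the 64, 0 passed, 38 had positive and 26 negative log2 fold changes, and the median was 0.02; at an unadjusted p under 0.05 there were 5 higher and 3 lower, against 6.8% and 5.95% of all tested genes. With the length and GC trend removed 32 were positive and 32 negative, with 3 higher and 3 lower at that limit. In that fit 463 of all 11580 genes were higher and 543 lower at that limit (8.69% in either direction). The smallest p among those lower was that of Atg16l2, a relative of the ligase subunit Atg16l1. It was at 126, 152 and 221 normalized counts in IgG and 52.5, 90.9 and 128 in anti-CD22 libraries, so that the groups met only at their edges. For Atg16l2 the log2 fold change was -0.82 (95% interval -1.29 to -0.35, SE 0.23, limma adjusted p = 0.212), and -0.94 with the trend removed. Next came the Wipi relative Wdr45 (-0.27, adjusted p = 0.349 in limma), the fusion SNARE gene Vamp8 (-0.17, adjusted p = 0.390 in limma) and the tethering gene Tecpr1 (-0.26, adjusted p = 0.396 in limma).

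Among those higher, the smallest p was that of Fbxl4, which encodes a ubiquitin ligase subunit that restrains mitophagy. It was at 1098, 1230 and 1474 in IgG and 1277, 1561 and 1660 in anti-CD22 libraries. Its log2 fold change was 0.27 (95% interval 0.10 to 0.44, SE 0.08, limma adjusted p = 0.229), and 0.26 with the trend removed. It was followed by the endoplasmic reticulum receptor gene Fam134b (0.14, adjusted p = 0.294 in limma), by Mtor, the kinase that holds the Ulk complex inactive (0.54, adjusted p = 0.324 in limma), and by Prkaa1, a catalytic subunit of the kinase AMPK that activates it (0.27, adjusted p = 0.334 in limma). With the trend removed these were 0.09, 0.42 and 0.10.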

How the data were processed

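RNA-seq of 14 libraries was analysed from 1 table of normalized counts, a signal that the authors deposited. Per the labels, reads of 100 bases from both ends were aligned with STAR to mm10, and counts per gene were divided by DESeq2 size factors. The sources used here give no versions, annotation or strand setting. Of 24421 entries, 27 with names turned into dates were left out (at most 0.149% of a library), and 0 columns lacked a sample.

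Group, replicate and list choices came from titles and symbols. The members and lists were chosen with earlier results of these data known. Of 169 list entries 168 were found (2 under another symbol). One member is counted in the totals but not reported here. limma 3.58.1 (R 4.3.3) was fitted on log2(value + 1) with a mean-variance trend, two-sided, for 11646 genes with a mean of at least 10, with Benjamini-Hochberg adjustment over all of them and a threshold of 0.05. Fold changes are on that scale, which understates low genes.

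Full values are given for the 12 members with the smallest p, the smallest p of each of 7 roles and all Atg8 genes, and for 4 further pathway genes in each direction. The other 23 had log2 fold changes of -0.30 to 0.17 and adjusted p of 0.607 to 0.999 in limma. Atg2b, Sqstm1 and a few others are named outside this rule, after their values were seen.

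Dividing by the smallest nonzero value of a library gave whole reads in every library (100% of values whole within 0.1 reads). Anti-CD22 replicate 3, whose smallest nonzero value was 1.01, was left out of the tests on reads all the same. Its values were whole as well, and no measure given here set it apart. The tests on reads were not run on all 14 libraries. The other 13 libraries were tested with edgeR 4.0.16 (0 genes called) and DESeq2 1.42.0 (35 called, 5 members without an adjusted p). Alternatives were other pseudocounts, filters and scalings, a replicate block, removal of length and GC trends (natural splines on GENCODE M21 transcripts), and leaving out libraries. The trend removal combined with leaving out the 3 libraries steepest in length was added after seeing the data. The limma fit and the trend removal were tested on simulated data, and the other fits were not. In the simulation genes varied independently, and the limma check held no length or GC trend between libraries. The check of the trend removal used an added length trend only.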

Additional observations from a re-analysis of the deposited data

Results flagged for a closer look

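In each group of 7 libraries, a library was listed here when its gap to the nearest other library took an unusually large share of the group's range by Dixon's criterion (over 0.568). Of 78 combinations of gene and group 4 were so listed, and chance gives about 3.9. In anti-CD22 replicate 7, Bnip3 stood at 2933 normalized counts (next highest 2313) and Map1lc3b at 7635 (next highest 6631). In IgG replicate 1, Ulk1 stood at 867 (next highest 628) and Tbk1 at 1850 (next lowest 2248). IgG replicate 1 also held the most neutrophil transcripts (53461 normalized counts over 7 markers), and anti-CD22 replicate 7 had the lowest rho with transcript length (-0.283); the part of either in these levels was not tested.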

How the results depend on the processing

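For all tested genes, 1 gene passed over all libraries; 0 passed with no mean-variance trend, in edgeR, with the length and GC trend removed, without anti-CD22 replicates 1, 2 and 3, and with both, 4 at a threshold of 0.1, and 35 in DESeq2. Members past the threshold were 0, or 1 in DESeq2 (Pink1). Members at an unadjusted p under 0.05 were 3, but 1 with no mean-variance trend and 5 with the trend removed and without those 3 libraries. The members' median log2 fold change was -0.036 without the 3 libraries and -0.024 with the trend removed as well. Leaving out 1 library at a time gave 0 to 43 genes, 0 to 1 members past the threshold, 1 to 8 at an unadjusted p under 0.05 (8 and 43 without anti-CD22 replicate 7), medians of -0.019 to 0.017 and 0 to 0 pairs; the cause was not tested.

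The labels do not say whether replicate numbers pair the samples, and the values cannot settle it. Correlations of same-numbered deviations were -0.145 to 0.160, and not every library correlated best with its own number. The replicate block called 2 genes, 2 with the trend removed too, and 0 members or pairs.

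Of 507 member values under other settings 31 changed sign, in 13 genes. Atg5 was 0.0012 with equal totals and Atg3 -0.0029 with quantile normalization. In edgeR and DESeq2, Optn was -0.082 and -0.086, and Atg2b 0.38 and 0.37. With the trend removed, with or without the replicate block, Tax1bp1 was -0.013, Nbr1 -0.091, Atg12 -0.061, Map1lc3a 0.042 and Gabarapl1 0.0061. Without the 3 libraries, Fundc1 was -0.050, Optn -0.089, Nbr1 -0.080, Atg10 -0.059, Atg12 -0.060, Map1lc3a 0.0059 and Gabarapl1 0.0045. With the trend also removed, Fundc1 was -0.031, Optn -0.069, Nbr1 -0.10, Ulk2 -0.024, Atg10 -0.023, Atg12 -0.079, Gabarap 0.0044 and Gabarapl1 0.039. The group difference in the log2 ratio of Map1lc3a to Map1lc3b was 0.077, 0.042 and 0.023 with the trend removed, without the 3 libraries and with both.

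Leaving out 1 library turned 14 members in at least 1 case: Atg101 (-0.019 to 0.070), Atg12 (-0.0075 to 0.13), Atg16l1 (-0.029 to 0.10), Atg2b (-0.61 to 0.17), Atg3 (-0.036 to 0.031), Atg4b (-0.081 to 0.0033), Atg5 (-0.033 to 0.025), Bnip3 (-0.0044 to 0.10), Nbr1 (-0.044 to 0.048), Optn (-0.13 to 0.21), Pik3r4 (-0.13 to 0.035), Sqstm1 (-0.017 to 0.039), Tbk1 (-0.10 to 0.0030) and Wipi2 (-0.083 to 0.014). The differences in the ratios of Map1lc3a to Map1lc3b (-0.085 to 0.0083) and Ulk1 to Ulk2 (-0.0033 to 0.14) turned too. The widest of these ranges were those of Atg2b and Optn, which had the fewest reads (21 and 52 at their lowest). Wipi1 followed, with 82 reads at its lowest; the part of depth in their spread was not tested.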
